A study of Oryza sativa with 18 samples.

Results

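Photo-thermosensitive genic male sterile rice makes or fails to make fertile pollen according to day length and temperature. The comparison described here is that of fertile with sterile young panicles of one such line, Wuxiang S (WXS), at P2, the stage at which pollen mother cells form. Its members are the coding genes that reached 10 counts in 3 or more of the 6 P2 libraries, and 23759 of the 47919 coding gene models in the count table met this rule. The members were chosen by level alone, without regard to group. Near the count minimum this still favours genes that differ, since a gene absent from sterile panicles could pass through the fertile libraries alone, or the reverse. Pollen mother cells arise inside the young anther and later enter meiosis, and the anther wall that encloses them, above all the tapetum, feeds them. A young panicle at this stage also holds the other floral organs, branches and meristems.

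SP2, the sterile group, came from plants kept in the field at a daily mean above 24 °C with more than 12 h of day length. FP2, the fertile group, came from plants moved to an incubator when the panicle was about 1 cm long and held there for 3 to 4 weeks at about 21 °C with 12 h of light and 12 h of darkness. All 6 libraries are from the same line, so no genotype separates the groups, and each group has n = 3 libraries, which the study describes as biological replicates. Temperature, day length, field or incubator and fertility differ together between SP2 and FP2 and cannot be told apart. Libraries of whole panicles do not separate fewer cells of a type from less RNA per cell. The same 2 treatments sampled at P3 (meiosis) and P4 (microspore formation) gave 12 further libraries, 18 in all, and are used here only to show where P2 differs.

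Total counts on coding genes were 37811810 to 52222861 per library, and the tested genes held 99.88% to 99.92% of them. Spearman correlations of the log2 CPM (counts scaled to the size of the library, with TMM factors) were 0.972 to 0.982 within a group and 0.927 to 0.937 between groups. SP2-1 lay nearest to the fertile libraries, and the number of called genes without it is given with the other left-out libraries in the closing section. In 57 tested genes, at least 1000 counts in some library went with a CPM spread of at least 100-fold within SP2 or within FP2. Of these 57 genes 1 was called, so the counts of called genes hardly depend on them. How reads from near-identical gene copies, from overlapping genes and from antisense genes were shared out is not given in the sources used here, so values of single members of such pairs are uncertain.

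Gene products could be given to 121 of the coding genes only, from the study's annotation of 109 genes that host differentially expressed circular RNAs and from 12 genes it placed in a circRNA-miRNA network. The hosts were picked by the study on these same libraries, though by back-spliced reads, and so are not a sample of all genes. The locus numbers of the other genes are not paired with names in the sources used here, and markers of panicle, anther or other tissues were not checked. The digits after Os in a locus number give the chromosome.

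At P2 4296 genes (18.1% of those tested) were called between FP2 and SP2, that is, passed an edgeR adjusted P of 0.05 with a log2 fold change of 1 or more in size. Of these, 2453 (10.3%) were higher and 1843 (7.76%) lower in the fertile panicles. Without the fold minimum 9698 genes (40.8%) had an adjusted P below 0.05, with 5063 higher and 4635 lower. The log2 fold changes of all tested genes had a median of 0.04 and quartiles of -0.39 and 0.53. TMM centres them near 0, and without it the median was 0.18. The called genes had a median of 1.82 on the higher side and of -1.66 on the lower side.

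The balance between the directions changed with the size of the difference. Among all called genes there were 1.33 higher genes for each lower gene, and among those with a log2 fold change of 3 or more in size there were 2.54 (643 against 253). From a size of 5 upwards the ratio was 3.8, with 251 higher and 66 lower genes. At 8 and above it was 2.95 (62 against 21). Genes at 0 counts in all 3 SP2 libraries numbered 109 among the higher genes, and 40 of the lower genes were at 0 in all 3 FP2 libraries. These form the straight outer bands in the plot of difference against level. Their levels in the other group were low, with a median of the group means of 0.696 CPM in FP2 and 0.64 CPM in SP2. Their fitted fold changes depend on the prior count used in the fit. By the rule for membership, such genes were tested only where all 3 libraries of the other group reached 10 counts. Without this filter 57.5% of all called genes were higher, beside 57.1% with it. Whether the filter shaped the ratios at large sizes was not tested.

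**Figure D1:**
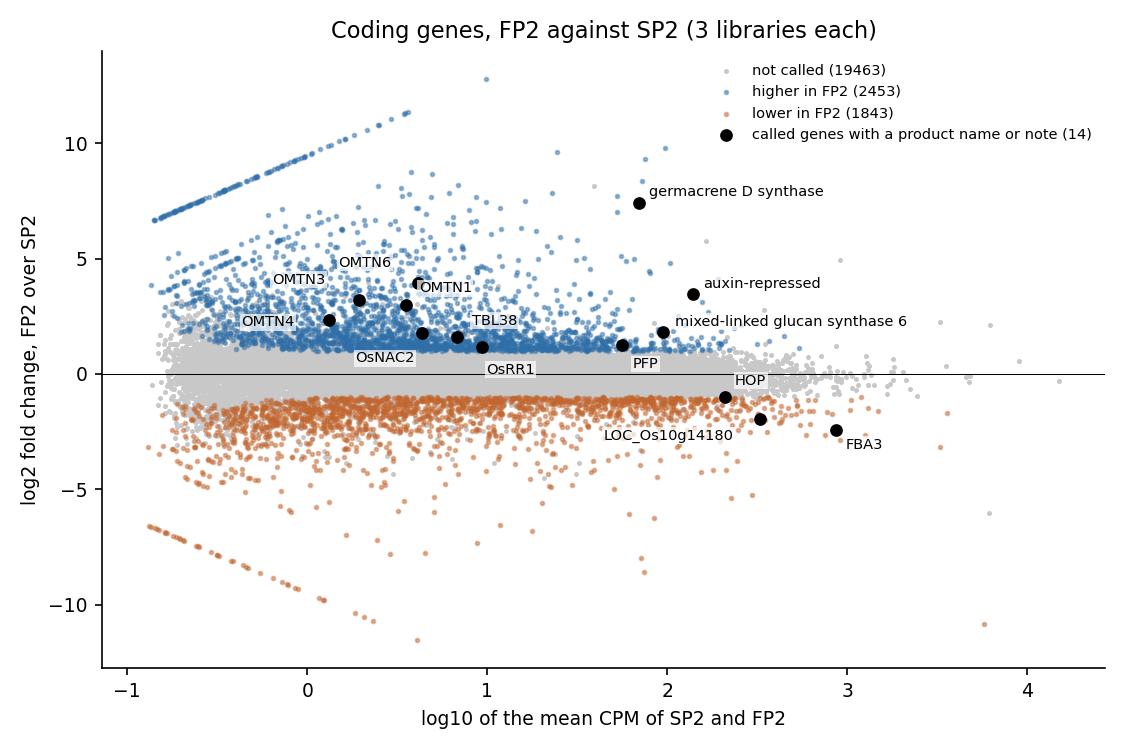
Each point is one of 23759 coding genes, plotted by the log10 of its mean CPM (x axis) and its log2 fold change of FP2 over SP2 (y axis), with the 2453 higher genes in blue, the 1843 lower genes in orange and the genes that were not called in grey. The 14 called genes with an annotation entry are black and named, from germacrene D synthase at 7.42 to FBA3 at -2.43, and the straight bands at the upper and lower left are genes at 0 counts in one of the groups.

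Direction also went with level. With the tested genes split by mean CPM into 5 classes of equal number, 17.6% of the scarcest class were called higher and 12.2% lower in FP2. In the most abundant class, from 53.6 CPM upwards, 2.53% were higher and 7.11% lower. Abundant genes thus fell more often than they rose, whereas genes of low and middle level rose more often. The shares of the classes were not tested against each other. Split in the same way by the authors' gene length, the shortest class had 12.5% higher and 13.3% lower. Only in this length class did lower calls outnumber higher ones. The second shortest class had 14% higher and 9.53% lower and the longest class 5.7% higher and 3.7% lower.

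The genes with the smallest P on each side of the comparison show how far a gene could move with little spread between libraries. LOC_Os10g38229, of unnamed product, had 10 counts in each of the 3 SP2 libraries and 8329, 7593 and 9436 counts in FP2. This is 0.221 ± 0.0213 CPM against 194 ± 8.99 CPM (SD, n = 3 each), with a log2 fold change of 9.77 (SE 0.11, edgeR adjusted P = 7.1e-07). At P3 its log2 fold change was 1.84 (edgeR adjusted P = 0.57). At P4 it was 1.29 (edgeR adjusted P = 3.9e-05), so the gene was called higher there too. Its difference at P2 departed from the mean of the other stages by 8.18 (edgeR adjusted P = 0.022). LOC_Os06g48180 stood at 4.00, 4.11 and 4.08 CPM in SP2 and at 131, 128 and 122 CPM in FP2. Its log2 fold change was 4.96 (SE 0.07) at P2, 5.32 at P3 and 4.47 at P4, so it was high in fertile panicles at every stage sampled.

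On the lower side, LOC_Os06g04990 fell from 334, 356 and 326 CPM in SP2 to 19.1, 18.9 and 18.7 CPM in FP2, a log2 fold change of -4.16 (SE 0.07, edgeR adjusted P = 3.1e-06). It was not called at P3 (-0.20, edgeR adjusted P = 0.56) and was lower again at P4 (-2.74). This locus opens a run of 4 neighbouring tested loci on chromosome 6 that were all called lower, with log2 fold changes between -5.24 and -4.16. The mean levels of the 4 loci lay between 97.7 and 575 CPM in SP2 and between 3.12 and 18.9 CPM in FP2. At P3 0 of the 4 were called lower, and at P4 all 4 were.

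Among neighbouring loci, 22 runs of at least 4 tested loci in a row were called in the same direction, 16 of them higher and 6 lower in FP2, with 100 loci in all. The longest was a run of 9 loci on chromosome 7, all higher in FP2, with log2 fold changes between 1.09 and 4.06 and a median of 2.29. Of these 9 loci, 8 were also called higher at P3 and 7 at P4. A run of 6 loci on chromosome 2 had the largest median, 7.27, from group means of at most 0.693 CPM in SP2 to between 0.408 and 6.61 CPM in FP2. Of its 6 loci, 5 were called higher at P3 and all 6 at P4. Neighbours in such a run can be copies of one another and share reads, and the number of runs was not compared with a chance arrangement. Over whole chromosomes the shares were even, between 9.6% and 12.3% higher and between 5.86% and 9.35% lower, with chromosome 1 at the top of the higher shares and chromosome 11 at the top of the lower ones.

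Gene models that the authors added to the annotation were called lower more often than higher, the reverse of annotated loci. Of 1402 tested added models, 352 (25.1%) were lower and 76 (5.42%) higher in FP2, against 6.66% lower and 10.6% higher among 22325 annotated loci. The median log2 fold change was -0.38 for added models and 0.05 for annotated loci. Added models were scarce, with a median mean level of 1.24 CPM against 14.3 CPM, but in the scarcest of the 5 level classes 25.2% of them were lower against 9.63% of annotated loci, and in the next class 34.2% against 7.99%. In the middle class the shares were 9.6% and 5.02%, in the next 11.8% and 4.02%, and in the most abundant class, with 49 added models, they were reversed, at 2.04% against 7.15%. In all they made up 19.1% of the genes called lower at P2. The difference between both kinds of gene model was not tested. The authors assembled the reads of these libraries, and the added models may come from that assembly. A scarce model could then be listed only through the group where it was high. Whether this shaped the shares was not tested.

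The same class was lower in fertile panicles at P3, with 28.7% of added models called lower and 8.72% higher beside 6.65% and 14.9% of all genes tested there. At P4 lower calls no longer outnumbered higher ones, at 10.2% and 11.5% beside 6.78% and 15.7%. Added models were thus still called lower more often, and higher less often, than all genes tested at P4. Of the 352 models lower at P2, 241 were also called lower at P3 and 43 at P4, where 98 of the 352 were abundant enough to be tested. The number of added models with at least 10 counts ran from 1356 to 1435 over the SP2 libraries and from 1232 to 1281 over those of FP2. The ranges of the groups do not overlap in this number, but it depends on depth. Total counts were 42328616 to 52222861 in SP2 and 37811810 to 44525411 in FP2, and the same number over all genes was not taken. Coding genes of all kinds with any count numbered 27770 to 28752 over the SP2 libraries and 28822 to 29803 over those of FP2. The share of all counts in added models was 2.20%, 1.31% and 2.04% in SP2 and 1.32%, 1.75% and 1.32% in FP2, and here the ranges overlap.

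**Figure D2:**
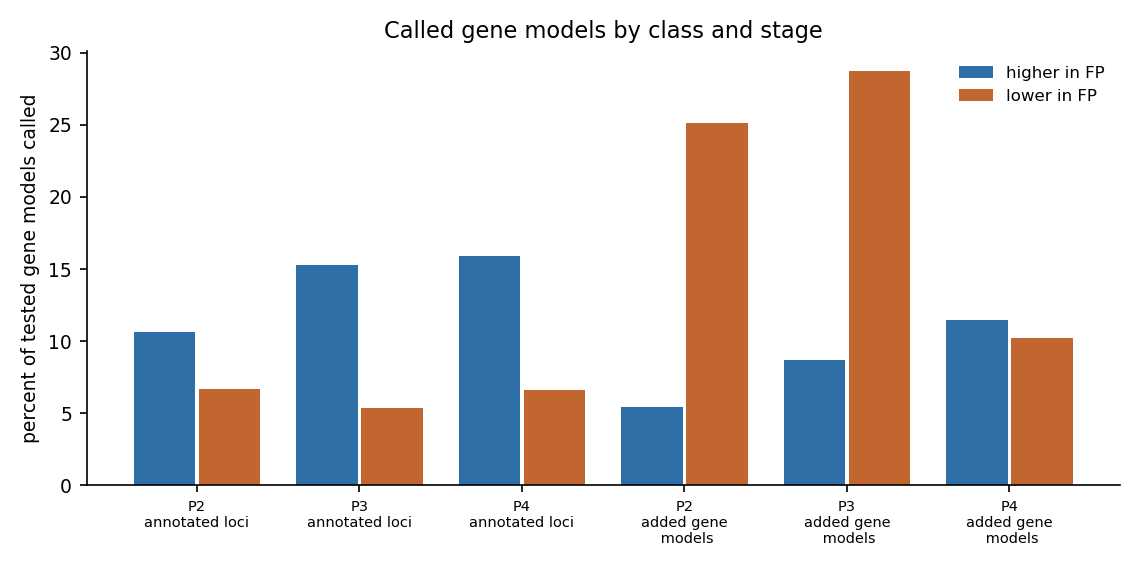
Bars give the percent of tested gene models that were called higher (blue) or lower (orange) in fertile than in sterile panicles (y axis) at P2, P3 and P4, for annotated loci and for gene models added by the authors (x axis). Among added models 25.1% were lower at P2 and 28.7% at P3, against 6.66% and 5.33% of annotated loci.

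Of the 121 genes with an annotation entry, 119 were tested. The gene for CASP-like protein 4A2 had 0 to 5 counts and OsPT6, a phosphate transporter gene, 0 to 3 counts in the 6 libraries, and both were left out by the rule on low counts. Of the 119 tested genes, 11 were called higher and 3 lower in FP2, which is 11.8% beside 18.1% of all tested genes. At the adjusted P alone 56 (47.1%) passed, 37 higher and 19 lower, beside 40.8% of all tested genes. Their median log2 fold change was 0.10. Library values were apart between the groups for 42 genes on the higher side and 25 on the lower, beside 29.6% and 26% of all tested genes. The genes were put into 14 groups by product, and the groups are described in turn by counts and medians, with no test of a group as a whole.

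**Figure D3:**
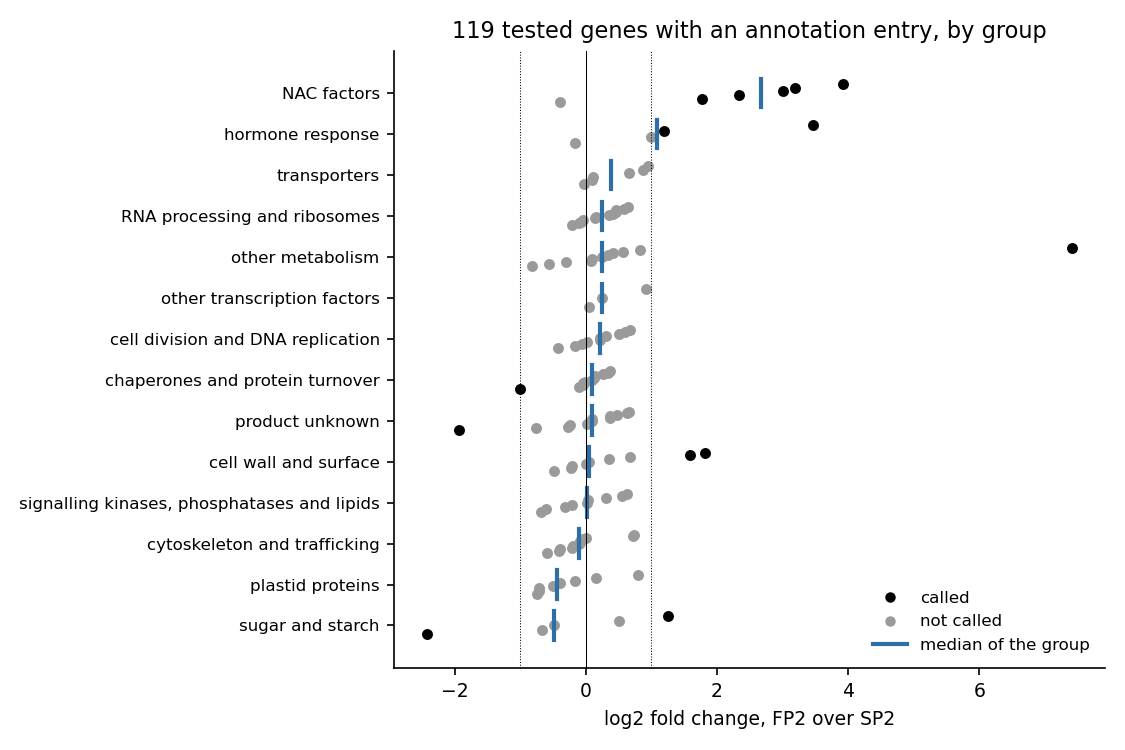
Each point is one of the 119 tested genes with an annotation entry, placed by its log2 fold change of FP2 over SP2 (x axis) in its product group (y axis), black where called and grey where not, with a blue bar at the median of the group and dotted lines at the fold minimum. The NAC factors stand farthest to the right with a median of 2.67, and the sugar and starch group is lowest with -0.49.

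NAC proteins are plant transcription factors that act in organ boundaries, stress responses and ageing, and those of the OMTN set carry a target site for the microRNA miR164. Of the 6 NAC genes in the network, 5 were called higher in fertile panicles and 0 lower, beside 10.3% of all tested genes called higher. OMTN6 (LOC_Os08g10080) stood at 0.662, 0.405 and 0.452 CPM in SP2 and at 7.68, 7.40 and 8.0 CPM in FP2, a 15.2-fold rise (log2 fold change 3.92, SE 0.24, edgeR adjusted P = 0.0001). OMTN3 (LOC_Os12g41680) had 0.368, 0.554 and 0.226 CPM in SP2 and 3.89, 3.29 and 3.37 CPM in FP2, which is 9.14-fold. OMTN1 (LOC_Os02g36880) had 0.540, 0.852 and 0.965 CPM against 6.78, 5.38 and 6.74 CPM, which is 7.98-fold. In each of these genes all fertile libraries lay far above all sterile ones.

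OMTN4 (LOC_Os06g46270), also scarce, rose from 26, 12 and 20 counts in SP2 to 64, 109 and 113 counts in FP2 (log2 fold change 2.34, SE 0.44, edgeR adjusted P = 0.0068). OsNAC2 (LOC_Os04g38720) rose 3.4-fold, from 1.99, 2.24 and 1.70 CPM to 6.78, 6.49 and 6.89 CPM. OMTN5 (LOC_Os06g23650) was the exception, with 3.26, 3.39 and 6.42 CPM in SP2 and 3.16, 3.51 and 3.22 CPM in FP2 (log2 fold change -0.40, SE 0.30, edgeR adjusted P = 0.32), and its groups overlap. Per length, all 6 genes were scarce, with mean FPKM of at most 2.91 in either group.

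The rise of the 5 genes was not particular to P2. All 5 were called higher in fertile panicles at P3 and at P4 as well, with log2 fold changes of 2.62 to 5.31 at P3 and 2.24 to 2.96 at P4. A test of the difference at P2 against the mean of those at P3 and P4 called OMTN1 only, at -1.15 on the log2 scale (SE 0.30, edgeR adjusted P = 0.0083), a value that was -0.98 without SP2 replicate 3 and -0.92 without TMM, under the size minimum. OsNAC2 was at -0.98 (edgeR adjusted P = 0.0037), just under it. All 5 genes are predicted targets of miR164 in the study's network. Of 18 tested predicted targets of miR164, 6 were called higher and 0 lower, beside 10.3% and 7.76% of all tested genes, and the sixth has no product name in the sources used here. Across all predicted targets in the network, 9 of 75 tested genes were called higher and 7 lower, shares near the 10.3% and 7.76% of all tested genes.

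**Figure D4:**
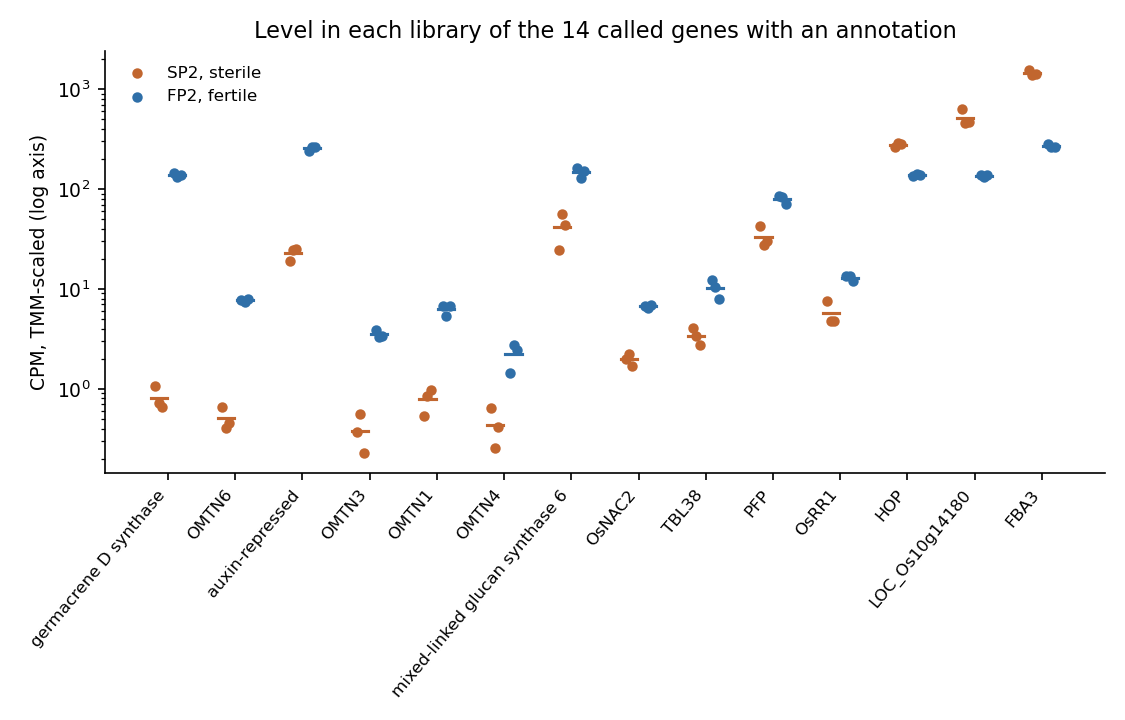
Points give the TMM-scaled CPM (y axis, log scale) of each SP2 (orange) and FP2 (blue) library for the 14 called genes with an annotation entry (x axis), and horizontal bars give the group means. In all 14 genes the ranges of SP2 and FP2 are apart, from germacrene D synthase at 0.812 against 138 CPM to FBA3 at 1453 against 271 CPM.

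Plant hormones steer organ growth and anther development, and 4 genes of hormone response had annotations, 2 of which were called higher and 0 lower, beside 10.3% and 7.76% of all tested genes. The gene for the auxin-repressed protein (LOC_Os09g26620), of a family whose transcripts are known from dormant buds, had 19.2, 24.6 and 25.1 CPM in SP2 and 242, 261 and 262 CPM in FP2. It rose 11.1-fold (log2 fold change 3.47, SE 0.12, edgeR adjusted P = 1.9e-05) and was also higher at P3 (2.58) and P4 (2.90). Per length it became one of the more abundant transcripts of the annotated set, at a mean FPKM of 113 in FP2 against 10.9 in SP2. OsRR1 (LOC_Os04g36070), a response regulator of cytokinin signalling, had 7.66, 4.75 and 4.74 CPM in SP2 and 13.5, 13.5 and 12.0 CPM in FP2 (log2 fold change 1.19, SE 0.22, edgeR adjusted P = 0.0062).

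Auxin response factor 3 (LOC_Os01g54990), a transcription factor that in Arabidopsis patterns floral organs, lay just under the fold minimum. It had 73.9, 74.7 and 65.9 CPM in SP2 and 144, 145 and 137 CPM in FP2, with a log2 fold change of 0.99 (SE 0.07, edgeR adjusted P = 0.00021). At P3 and P4 its differences were 0.16 and 0.12 and did not pass the test. OsGAI (LOC_Os03g49990), a DELLA repressor of gibberellin signalling, was at -0.17 (edgeR adjusted P = 0.19). Of the 3 other transcription factors annotated, indeterminate-domain 5 (LOC_Os08g44050), a zinc finger protein, was 1.9-fold higher at the adjusted P without reaching the fold minimum, at 29.4, 25.6 and 32.3 CPM against 57.8, 52.3 and 55.6 CPM. The heat stress factor gene OsHsfC1a (LOC_Os01g43590) had 14 to 28 counts in SP2 and 19 to 31 in FP2, with overlapping groups.

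The largest difference of all annotated genes was that of germacrene D synthase (LOC_Os04g27670), a terpene synthase of the kind that makes volatile sesquiterpenes. It had 43, 34 and 32 counts in SP2 and 6399, 5262 and 6407 in FP2. In CPM this is 0.812 ± 0.213 against 138 ± 5.12 (SD, n = 3 each), 171-fold higher (log2 fold change 7.42, SE 0.19, edgeR adjusted P = 8.4e-06). Its mean FPKM in sterile panicles was low at the later stages too, 0.2 in SP3 and 1.1 in SP4 against 96.3 in FP3 and 108 in FP4. Of the other 10 genes of metabolism outside sugar and starch, 0 were called, beside 18.1% of all tested genes. Uridine nucleosidase URH1 (LOC_Os08g44370), which splits uridine into uracil and ribose, was 1.77-fold higher at the adjusted P, with 25.4, 25.6 and 25.5 CPM in SP2 against 45.9, 45.9 and 43.6 CPM in FP2. Sulfurtransferase 1 (LOC_Os12g41500) was 1.76-fold lower, with 93.5, 99.3 and 86.4 CPM against 46.2, 58.2 and 53.9 CPM.

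Sugars feed the developing anther, and starch is later stored in pollen. In the group of 5 sugar and starch genes all 5 passed the adjusted P, 2 higher and 3 lower, and 1 was called in each direction. Of all tested genes 40.8% passed the adjusted P and 18.1% were called. FBA3 (LOC_Os01g67860), a fructose-bisphosphate aldolase of glycolysis, was the strongest of the annotated genes that fell. It had 1557, 1400 and 1403 CPM in SP2 and 284, 264 and 264 CPM in FP2, 5.37-fold lower (log2 fold change -2.43, SE 0.08, edgeR adjusted P = 1.4e-05). In mean FPKM it went from 613 to 109. The alpha subunit gene of pyrophosphate--fructose 6-phosphate 1-phosphotransferase (PFP, LOC_Os02g48360), an enzyme of the step before aldolase, rose 2.39-fold, from 42.2, 27.6 and 30.0 CPM to 84.3, 82.4 and 71.1 CPM.

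Soluble starch synthase 3 (LOC_Os04g53310), which lengthens the chains of amylopectin, was 1.59-fold lower at the adjusted P, with 280, 214 and 207 CPM in SP2 against 142, 151 and 149 CPM in FP2. The gene flo2 (LOC_Os04g55230), named for floury rice endosperm, was 1.41-fold lower. The sugar transporter gene ERD6-like 16 (LOC_Os03g24860) was 1.41-fold higher. The median of the 5 genes was -0.49, beside 0.04 over all tested genes.

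Grass cell walls contain mixed-linked glucan, and callose, lignin and acetylated xylan also change as anthers form. Of 9 tested genes of the cell wall and surface, 2 were called higher and 0 lower, a share near the 18.1% of all tested genes called. The gene for mixed-linked glucan synthase 6 (LOC_Os08g06380), the synthase of that glucan, had 24.4, 56.8 and 44.1 CPM in SP2 and 163, 129 and 150 CPM in FP2 (log2 fold change 1.82, SE 0.30, edgeR adjusted P = 0.0042). SP2 spread widely here, but its highest library was still below the lowest of FP2. Trichome birefringence-like 38 (TBL38, LOC_Os01g46350), of a family of wall polysaccharide acetyltransferases, rose 3-fold, from 4.07, 3.36 and 2.75 CPM to 12.2, 10.4 and 8.0 CPM. Cinnamoyl-CoA reductase 1 (LOC_Os08g34280), an enzyme of lignin synthesis, was 1.39-fold lower at the adjusted P, at 23.2, 23.4 and 21.1 CPM against 16.7, 16.5 and 15.4 CPM. The glycine-rich cell wall protein gene, among the most abundant of the annotated set per length, hardly differed, with mean FPKM of 376 and 359.

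Of 11 genes of chaperones and protein turnover, 1 was called (9.09%) and 2 passed the adjusted P (18.2%), beside 18.1% and 40.8% of all tested genes. The called gene was that of the Hsp70-Hsp90 organizing protein (HOP, LOC_Os02g43020), a co-chaperone that links both chaperones. It had 264, 290 and 283 CPM in SP2 and 135, 142 and 139 CPM in FP2, 2.01-fold lower (log2 fold change -1.01, SE 0.06, edgeR adjusted P = 0.00011). Its value lies at the fold minimum, and it was -0.87 without TMM and -0.99 without FP2 replicate 1, which ends the call but not the difference. The ubiquitin gene LOC_Os08g19830 had a log2 fold change of -0.01 and the polyubiquitin gene LOC_Os02g06640, the most abundant of the annotated set by FPKM, one of 0.36 (edgeR adjusted P = 0.086). HOS1 (LOC_Os03g52700), a ubiquitin ligase known in Arabidopsis from cold signalling, was 1.25-fold higher at the adjusted P.

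Genes of cell division and DNA replication were not called at P2, 0 of 10, and 3 passed the adjusted P, all higher in FP2, a smaller share than the 40.8% of all tested genes that passed. FSM (LOC_Os01g67100), a subunit of a chromatin assembly factor that maintains the rice shoot meristem, had 39.4, 42.6 and 38.6 CPM in SP2 and 64.3, 64.7 and 63.0 CPM in FP2 (log2 fold change 0.67, SE 0.07, edgeR adjusted P = 0.00073). NACK1 (LOC_Os01g33040), a kinesin that in tobacco widens the cell plate at cytokinesis, had 62.8, 60.0 and 62.6 CPM against 87.9, 98.4 and 91.9 CPM (log2 fold change 0.59, SE 0.07). The DNA topoisomerase 3-alpha gene (LOC_Os06g16980) was at 0.51 (SE 0.08). The mitotic kinase gene Aurora-1 (LOC_Os01g09580) was at 0.31 with overlapping groups, cyclin-B1-3 (LOC_Os02g41720) at -0.16, and OsOSD1 (LOC_Os02g37850), which acts in the entry into the second meiotic division, at -0.42 (edgeR adjusted P = 0.065).

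Plastid proteins had a median log2 fold change of -0.45, with 4 of 8 genes lower and 1 higher at the adjusted P, beside 19.5% and 21.3% of all tested genes, and 0 called. CRSH1 (LOC_Os05g06890), which makes the plastid alarmone ppGpp, was 1.67-fold lower, with 59.8, 61.2 and 66.5 CPM in SP2 and 36.1, 36.7 and 39.2 CPM in FP2. Protoporphyrinogen oxidase (LOC_Os04g41260), of the shared path to haem and chlorophyll, was 1.63-fold lower, as was ribosome-binding factor A (LOC_Os06g04610). The WEB family gene (LOC_Os02g03840) was 1.73-fold higher. The libraries of each group lay close together for all 4 of these genes, and their groups do not overlap.

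Of 12 RNA processing and ribosome genes 6 were higher and 0 lower at the adjusted P, beside 21.3% and 19.5% of all tested genes. Their log2 fold changes ran from -0.21 to 0.64 with a median of 0.25, and 0 were called. A helicase gene of the SKI2-like family (LOC_Os12g18140) was 1.56-fold higher and nucleolin 2 (LOC_Os12g37430), a protein of ribosome assembly, 1.49-fold higher. In the group of cytoskeleton and trafficking, 4 of 12 genes were lower and 1 higher at the adjusted P, beside 19.5% and 21.3% of all tested genes, and 0 were called, with a median of -0.10 that turned to 0.04 without TMM. The actin nucleators formin-like 20 (LOC_Os01g40330) and formin-like 6 (LOC_Os04g40400) were 1.65-fold higher and 1.32-fold lower. Among 9 genes of signalling kinases, phosphatases and lipids 0 were called, beside 18.1% of all tested genes. At the adjusted P 2 of them were higher and 2 lower (44.4%), beside 40.8% of all tested genes. The phosphatase gene OsPP108 (LOC_Os09g15670) jumped within both groups, with 390, 0 and 344 counts in SP2 and 0, 352 and 70 in FP2. Among 6 tested transporters 0 were called and 2 (33.3%) passed the adjusted P, both higher, beside the same 18.1% and 40.8%. The calcium-permeable channel gene CSC1 (LOC_Os01g35050) was the nearest to the fold minimum at 0.95 (SE 0.10). Of the 13 genes of unknown product 1 was called (7.69%, beside 18.1% of all tested genes). This was LOC_Os10g14180, with 629, 455 and 467 CPM in SP2 and 137, 132 and 139 CPM in FP2 (log2 fold change -1.93, SE 0.14).

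The P3 and P4 comparisons share no library with that at P2 and tell which of its differences recur. Between FP3 and SP3 5271 of 24452 tested genes (21.6%) were called, and between FP4 and SP4 5559 of 24724 (22.5%). Of the 2453 genes higher at P2, 1413 were also called higher at P3, which is 57.6% of the P2 genes and 38.8% of those higher at P3. At P4 1294 recurred, 52.8% of the P2 genes and 33.3% of those at P4. Of the 1843 genes lower at P2, 590 (32%) recurred at P3 and 385 (20.9%) at P4, which are 36.3% and 23% of the genes lower there. Fewer of the lower genes could recur at P4, since 1386 of the 1843 were abundant enough to be tested there against 2362 of the 2453 higher genes. In the same direction at all 3 stages, 1106 (45.1%) of the higher and 196 (10.6%) of the lower genes were called. Higher genes thus recurred in a larger share than lower genes, but higher calls were also more frequent among all genes tested. These shares were 14.9% higher and 6.65% lower at P3, and 15.7% and 6.78% at P4. At neither P3 nor P4 were 852 (34.7%) of the higher genes and 1064 (57.7%) of the lower genes called in their P2 direction. This difference in shares was not tested.

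A fit of all 18 libraries tested for each gene whether the difference at P2 departed from the mean of those at P3 and P4. It called 3840 of 27233 genes (14.1%), 1704 (6.26%) with a more positive and 2136 (7.84%) with a more negative difference at P2. Among the genes called at P2 it called 840 of the higher (34.2%) and 833 of the lower (45.2%). These genes were picked by their P2 difference in the same libraries. The choice itself raises both shares, which therefore do not tell how far the genes are particular to P2. Of the 121 genes with an annotation entry 14 had a called departure, no larger a share than over all genes. FSM had differences of 0.67, -1.16 and -1.71 at P2, P3 and P4, a departure of 2.10 (SE 0.09, edgeR adjusted P = 4.2e-10). NACK1 had 0.59, -0.99 and -1.64, a departure of 1.89, and Aurora-1 0.31, -1.33 and -1.76, a departure of 1.85. These 3 were the genes of the cell division list with a called departure, and the other 7 had none. DNA topoisomerase 3-alpha departed the same way by 0.74 (SE 0.09, edgeR adjusted P = 1.5e-05), under the size minimum. OsOSD1 departed by 0.67 (SE 0.26, edgeR adjusted P = 0.07). Cyclin-B1-3 was at -0.16, -0.27 and 1.26 at the 3 stages and was called higher at P4, and ATM, DNA ligase 1 and gamma-tubulin complex component 2 departed by at most 0.10.

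The genes HOP and cinnamoyl-CoA reductase 1 went the opposite way. HOP was at -1.01, 0.64 and 0.46 at P2, P3 and P4, and the reductase at -0.48, 1.19 and 1.85, a departure of -2.0 (SE 0.09, edgeR adjusted P = 5.7e-10). FBA3 was at -2.43, 0.16 and -0.88 at P2, P3 and P4. Its level varied more among sterile than among fertile stages, as the mean FPKM of FBA3 was 613 in SP2, 175 in SP3 and 352 in SP4, against 109, 190 and 189 in FP2, FP3 and FP4. The PFP gene rose at P2 but was at 0.29 and -0.17 at P3 and P4. Soluble starch synthase 3 was lower at P2 and higher at P3 (1.14, SE 0.16, edgeR adjusted P = 0.0022). The 3 sugar and starch genes with such a departure therefore did not move together, with PFP at 1.18 and FBA3 and the synthase at -2.08 and -1.09.

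**Figure D5:**
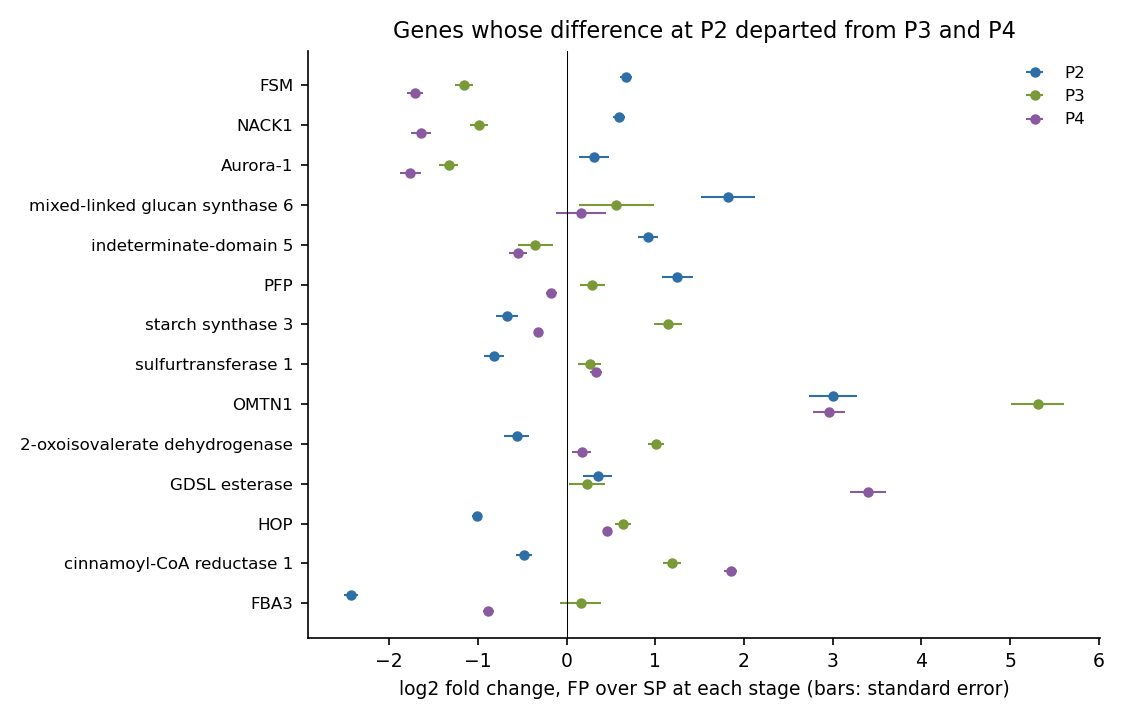
Points give the log2 fold change of fertile over sterile panicles (x axis) at P2, P3 and P4, with bars of 1 standard error, for the 14 annotated genes whose difference at P2 departed from the mean of P3 and P4 (y axis, ordered by the departure). FSM, NACK1 and Aurora-1 lie right of 0 at P2 and left of 0 at P3 and P4, and HOP and cinnamoyl-CoA reductase 1 lie the other way round.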

How the data were processed

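The libraries were made by the authors from rRNA-depleted RNA with a directional kit and sequenced on a HiSeq Xten. Per the labels and the study's methods, HISAT2 mapped the reads on the rice genome of MSU, and StringTie 1.3.1 assembled them. The deposited table holds whole-number counts per coding gene without normalization, and the deposited FPKM table gives the authors' values per length and library, used only for levels between genes. The counting tool, its use of strand and its handling of multiply mapped reads are not given in the sources used here. Unmatched columns numbered 0.

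Genes that reached 10 counts in 3 or more of the 6 libraries were tested with the quasi-likelihood test of edgeR 4.0.16 (limma 3.58.1, R 4.3.3) with TMM, SP2 and FP2 only and no block, with Benjamini-Hochberg adjustment over all tested genes. The call threshold was an adjusted P of 0.05 together with a log2 fold change of 1 or more in size. The standard error of a fold change was derived from its F statistic and is approximate. P3 and P4 were fitted alike, and the departure of P2 was a contrast in a fit of 18 libraries. Depth sets the precision of low genes, and CPM of single libraries cover counting error only. Tables and plots used Python 3.11.15, pandas 2.3.3, numpy 2.4.6 and matplotlib 3.10.9. The procedure was tested on simulated data.

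The genes and lists were chosen with earlier results of these data known. Named are the called genes with an annotation and some, not all, of the members that define a group or passed the adjusted P. Of genes without a product name, the 2 higher ones and the lower one with the smallest P are named. So is the 1 called gene of unknown product. Product groups were formed from the study's annotation after the files were seen, since 0 locus numbers matched the RefSeq gene table, whose entries (assembly ASM3414082v1) served only for synonyms. Planned lists of heat shock, clock, photosynthesis, tapetum and meiosis genes could not be matched to loci, and no promoter motifs were searched. Alternatives were DESeq2 1.42.0, no TMM, other filters and thresholds, all 18 libraries in one fit, a replicate block, no genes over 1% of a library and each library left out. The authors' lncRNA and circRNA tables were not used here.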

Additional observations from a re-analysis of the deposited data

Results flagged for a closer look

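For 14 annotated genes the test of the difference itself, in the fit of all 18 libraries, called a departure of the fertile-minus-sterile log2 fold change at P2 from the mean of those at P3 and P4. The same test called 14.1% of all genes, so 14 of 121 is no larger a share. The departure was positive for FSM (2.10), NACK1 (1.89), Aurora-1 (1.85), mixed-linked glucan synthase 6 (1.45), indeterminate-domain 5 (1.37) and PFP (1.18). It was negative for FBA3 (-2.08), cinnamoyl-CoA reductase 1 (-2.0), HOP (-1.57), the GDSL esterase gene LOC_Os06g43044 (-1.48), the 2-oxoisovalerate dehydrogenase gene LOC_Os07g07470 (-1.16), OMTN1 (-1.15), sulfurtransferase 1 (-1.12) and soluble starch synthase 3 (-1.09).

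The value of mixed-linked glucan synthase 6 rests on few libraries, since the edgeR adjusted P was 0.032 with all of them and 0.08 without SP2 replicate 1, 0.057 without SP2 replicate 3, 0.061 without FP2 replicate 1 and 0.056 without FP2 replicate 3. The GDSL esterase departed through P4, where it was at 3.40, and not through P2, where it was at 0.35. OMTN1 fell below the size minimum without SP2 replicate 3 (-0.98), soluble starch synthase 3 without SP2 replicate 1 (-0.94), and 2-oxoisovalerate dehydrogenase (-0.99) and sulfurtransferase 1 (-0.98) without FP2 replicate 1. Groups of 3 libraries were not searched for single outlying libraries.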

How the results depend on the processing

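The number of called genes was 4455 with DESeq2 (4176 shared with edgeR), 4505 without TMM, 4274 without a filter, 3467 with at least 1 CPM in 3 libraries, 4428 with all 18 libraries in one fit, 3098 at an adjusted P below 0.01 and 4282 without the genes over 1% of a library. Leaving out one library gave 3713 to 4730 in total, 2074 to 2649 higher and 1625 to 2081 lower, and 3593 to 4070 departures of P2 from the other stages. The total of 4730 came without SP2-1, and the other omissions gave 3713 to 3934. With no fold minimum the counts were 9698 in total, 5063 higher and 4635 lower, and among annotated genes 56 in all, 4 of the cell wall, 2 of chaperones, 6 of other metabolism, 5 of unknown product and 5 of sugar and starch. Without TMM the median log2 fold change of all genes shifted by 0.14, the higher share of called genes went from 57.1% to 66.6%, and 0 chaperone genes were called. Single left-out libraries gave 0 to 1 chaperone genes and 1 to 2 of unknown product. One further alternative, chosen after seeing the data, without the genes that jumped within a group, left 4295 calls.

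The replicate block gave 3681 called genes, 3590 of them shared, and 3658 departures of P2. Same-numbered SP2 and FP2 libraries showed no strong shared deviation, with correlations of -0.0134, 0.00263 and -0.0232. With 3 libraries per group this check cannot tell whether same-numbered libraries were harvested or handled together. The 14 called genes with an annotation entry kept the sign of their P2 log2 fold change under the alternatives run for them. Named genes close to 0, such as ubiquitin, were not refitted one by one.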
